A study of Mus musculus with 6 samples.

Results

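Apoe, Mbp and Gamt were followed as genes with known roles in glia, through the 3 of 50 mRNA probes on the array that carry their transcripts' accessions. The probes were chosen by name: A_51_P171999 for Apoe (NM_009696), A_51_P349205 for Mbp (NM_010777) and A_51_P484869 for Gamt (NM_010255). The study measured RNA of the ipsilateral cortex of adult male C57BL/6J mice. In the tMCAO group (transient middle cerebral artery occlusion) a filament closed that artery for 1 h, and the cortex was collected once blood had flowed again for 12 h. Sham mice had the operation without the filament and are labelled with the same 12 h. Each group held 3 mice with 1 single-colour array per mouse, and all RNA was first digested with RNase R, an exonuclease that removes linear RNA to enrich circular RNA. The labels do not say which part of the ipsilateral cortex was dissected, so the shares of infarct and surviving tissue are not known.

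Apoe encodes apolipoprotein E, the main carrier of cholesterol and phospholipid between brain cells, which is made mostly by astrocytes and also by microglia. Mbp encodes myelin basic protein, which oligodendrocytes use to compact the myelin sheath, and its mRNA is transported into oligodendrocyte processes. Gamt encodes guanidinoacetate N-methyltransferase, which completes creatine synthesis and is found in oligodendrocytes and astrocytes. Linear mRNA is what RNase R is meant to remove, so the signal at these probes is what survived digestion and is not a direct measure of expression. How far digestion differed between mice was not tested.

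All 3 probes were well above background on all 6 arrays. Each probe was printed 10 times per array, and the outlier flags left 54 of 60 Apoe spots, 55 of 60 Mbp spots and 58 of 60 Gamt spots. Every one of these was well above background and none was saturated. Signals below are log2 intensities minus the array's 75th percentile over circRNA probes, so 0 is the level of that percentile and each unit is a doubling. The number of arrays limits the precision.

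The array named sham 3 and the other sham arrays were unlike. Over the 1336 tested probes the signal of sham 3 correlated at 0.925 with sham 1 and 0.939 with sham 2. Its correlations with the tMCAO arrays were 0.957 to 0.987, and the value for sham 1 against sham 2 was 0.988. For tMCAO 1 against tMCAO 2 the value was 0.937, slightly below that for sham 3 against sham 2. Sham 1 and sham 2 reached only 0.903 to 0.953 with the tMCAO arrays. They can equally be read as a pair that stood apart, so these values do not show that sham 3 is the unusual array. These are correlations across probes, which are not independent. Sham 3 and tMCAO 3 lay in row 2 of the slide and the other 4 arrays in row 1. The 75th percentile that was subtracted ran from 6.17 to 7.37 (log2) in tMCAO and from 6.67 to 7.09 in sham. The differences of Apoe, Mbp and Gamt are therefore given with and without sham 3, as are other printed probe differences that moved by over 1.5 times or changed a call without it. The sample label of sham 3 was kept as deposited. Whether that label is right was not tested, nor was the part of array row, and every sham mean with 3 mice rests on it.

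Apoe, the astrocytic lipid carrier, averaged lower in the tMCAO mice. Its scaled signal was -0.02, 0.45 and 0.53 in the 3 tMCAO mice and 1.20, 1.25 and 0.51 in the 3 sham mice. Sham 1 and sham 2 lay above every tMCAO mouse, and sham 3 lay just below the highest of them, so the groups overlapped by that mouse alone. Over all 1336 tested probes the groups did not overlap for 12.1%. The tMCAO mean was 0.32 ± 0.30 (SD, n = 3) and the sham mean 0.98 ± 0.41. The difference of -0.66 ± 0.28 (SE) on the log2 scale put the tMCAO signal at 0.631 of the sham signal, with a 95% interval from -1.31 to -0.02 before any adjustment. In limma its unadjusted p was 0.0440 and its adjusted p 0.596, so it did not pass after adjustment. Of all 1336 tested probes 0.0% had an adjusted p under 0.05 and 3.22% were lower in tMCAO at an unadjusted p under 0.05. Among the 29 tested mRNA probes Apoe was the 1 that was lower at that unadjusted threshold (3.45%). When the mRNA probes were fitted alone, its unadjusted p in limma was 0.0983. In tissue of mixed cells after RNase R, fewer cells of a type, less RNA per cell and more complete digestion cannot be told apart.

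The unscaled intensities had the same bright arrays. The mean Apoe intensity over spots was 163, 118 and 104 in the tMCAO mice and 312, 305 and 145 in the sham mice. Sham 1 and sham 2 were the brightest, and sham 3 fell between tMCAO 1 and tMCAO 2. The SD between replicate spots within an array was 0.021 to 0.058 on the log2 scale, well under the SD between mice. Without sham 3 the difference was -0.90 with no overlap and an adjusted p of 0.0557 in limma, where adjusted p-values ranged from 0.0270 to 0.990 over the alternatives. In that fit 23.7% of all probes and 48.3% of the mRNA probes lay lower without overlap. For Apoe this lack of overlap follows from leaving out the 1 overlapping mouse, which was singled out in these same arrays. Without sham 1 the Apoe difference was -0.56 and without sham 2 -0.53, so Apoe averaged lower in each fit that left out 1 array. With the 4 arrays of row 1 alone it was -1.01, with an adjusted p of 0.113 in limma. No test was possible in row 2, where each group has 1 mouse.

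Mbp, the compact-myelin protein of oligodendrocytes, showed nearly equal averages. Its scaled signal was -1.49, -1.64 and -1.15 in the tMCAO mice and -1.46, -1.72 and -1.03 in the sham mice. The values interleaved, with a sham mouse at each end of the range. The tMCAO mean was -1.43 ± 0.25 (SD, n = 3) and the sham mean -1.40 ± 0.35. The difference was -0.03 ± 0.25 (SE), with an adjusted p of 0.961 in limma. Its 95% interval ran from -0.61 to 0.56, so changes of moderate size in either direction are not excluded. The sign turned to 0.13 when arrays were scaled over circRNA probes detected on all 6 arrays and to 0.16 without sham 3. In row 1 alone it was 0.02.

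Before scaling, Mbp intensity was 58.8, 27.8 and 32.5 in the tMCAO mice and 49.4, 39.1 and 50.1 in the sham mice. The brightest and the dimmest array were both tMCAO, and the whole sham group lay between them. The spot SD of Mbp ran from 0.051 to 0.17 within an array, the largest on tMCAO 2. That spread between spots was still below the SD between mice in both groups. Mbp averaged dimmer than Apoe and Gamt in both groups, with a local background of 29 to 32 per array. Whether its low signal narrowed differences was not tested.

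**Figure D1:**
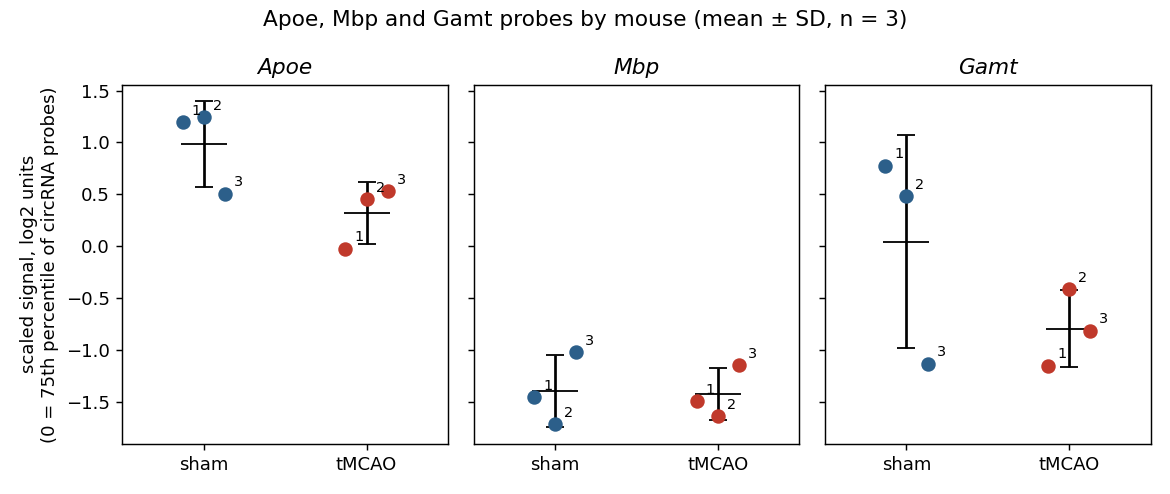
Scaled log2 signal of the Apoe, Mbp and Gamt probes in each sham (blue) and tMCAO (red) mouse, numbered by replicate, with the mean and SD in black (n = 3). Sham 1 and sham 2 lie above every tMCAO mouse for Apoe and Gamt, sham 3 lies among the tMCAO mice for Apoe and near the lowest of them for Gamt, and Mbp values interleave.

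Gamt, the last enzyme of creatine synthesis, had the largest average difference of the 3 genes and the widest sham spread. Its scaled signal was -1.15, -0.42 and -0.82 in the tMCAO mice and 0.78, 0.49 and -1.13 in the sham mice. Sham 1 and sham 2 lay above every tMCAO mouse, while sham 3 was next to the lowest tMCAO mouse. The tMCAO mean was -0.80 ± 0.37 (SD, n = 3) and the sham mean 0.04 ± 1.03. The difference was -0.84 ± 0.49 (SE), a tMCAO signal at 0.559 of sham, with a 95% interval from -1.98 to 0.31. It did not pass in limma (unadjusted p = 0.128, adjusted p = 0.596).

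Without sham 3 the Gamt difference was -1.43 ± 0.27 (SE) with no overlap and an adjusted p of 0.0221 in limma, in a range of 0.0211 to 0.990 over the alternatives. In that fit 9.36% of all probes and 31.0% of the 29 mRNA probes had an adjusted p under 0.05, so Gamt was among many. The lack of overlap follows from leaving out sham 3, which was singled out in these same arrays, so this fit is no separate test. The Gamt difference was -0.47 without sham 1 and -0.62 without sham 2. With the 4 arrays of row 1 alone it was -1.42, and limma gave an adjusted p of 0.0884. With array row as a block and all 6 arrays, the adjusted p was 0.470 for both Gamt and Apoe. In unscaled intensity Gamt read 74.5, 64.7 and 41.0 in the tMCAO mice and 233, 180 and 46.6 in the sham mice. The bright arrays were again sham 1 and sham 2, and sham 3 was dimmer than tMCAO 1 and tMCAO 2. The spot SD within an array was 0.033 to 0.14, far below the sham SD between mice.

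**Figure D2:**
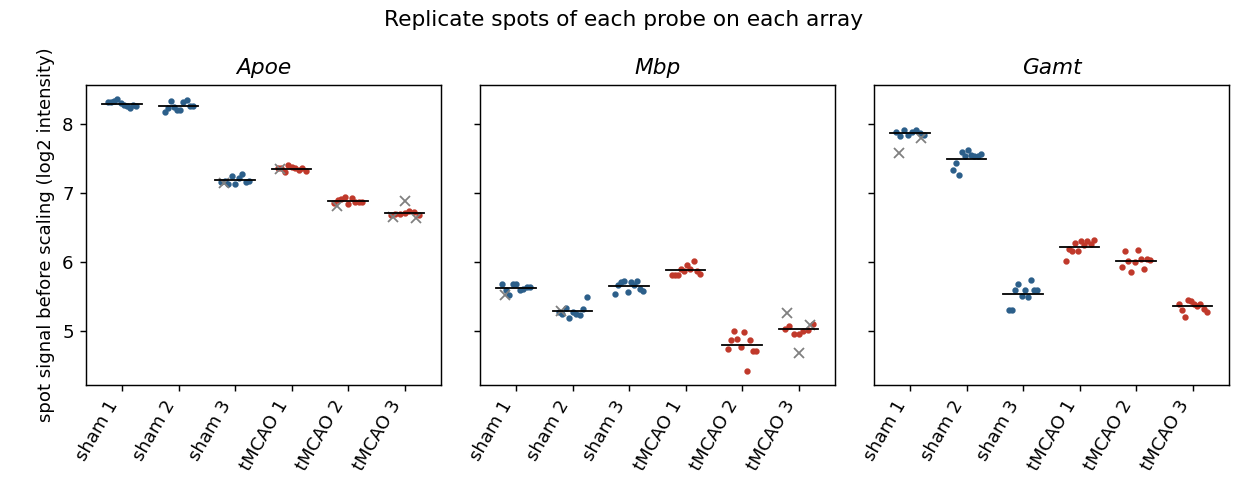
Each replicate spot of the Apoe, Mbp and Gamt probes on the 6 arrays, as log2 intensity before scaling, with the mean of the spots used as a black line and outlier-flagged spots as grey crosses. Spots of a probe lie close together on an array, with SDs of 0.021 to 0.17, and sham 1 and sham 2 are the brightest arrays for Apoe and Gamt.

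Sham 3 differed from the other sham mice in a different direction for the myelin gene than for the others. Relative to the mean of sham 1 and sham 2, it was at -0.72 for Apoe, -1.76 for Gamt and 0.56 for Mbp (scaled log2). In scaled signal sham 3 held the highest Mbp value of all 6 mice and the lowest Apoe and Gamt values of the sham mice. Before scaling, Mbp was brightest in tMCAO 1 (58.8), and sham 3 (50.1) was close to sham 1 (49.4).

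Ratios of probes on the same array do not change when an array is scaled by a single factor. The log2 ratio of Apoe over Mbp was 1.47, 2.09 and 1.68 in the tMCAO mice and 2.66, 2.96 and 1.53 in the sham mice. The tMCAO mean was 1.75 ± 0.31 (SD, n = 3) and the sham mean 2.38 ± 0.75, and they differed by -0.64 (exact permutation test, two-sided, p = 0.3). Sham 1 and sham 2 were above all tMCAO mice and sham 3 was near the lowest. The level of such a ratio also carries the probes' own brightness, so only its change between mice is read.

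The log2 ratio of Gamt over Mbp was 0.34, 1.22 and 0.33 in the tMCAO mice and 2.24, 2.20 and -0.11 in the sham mice. The difference of means was -0.81 (exact permutation test, two-sided, p = 0.4), with sham 3 the lowest of all. Apoe over Gamt was 1.13, 0.87 and 1.35 in the tMCAO mice and 0.42, 0.76 and 1.64 in the sham mice, a difference of 0.17 (exact permutation test, two-sided, p = 0.7). All 3 ratios overlapped between groups. Adjusted over the 3 pairs, the permutation p-values were 0.6, 0.6 and 0.7, and 3 arrays against 3 cannot give a p below 0.1. Without sham 3 the differences were -1.06 for Apoe over Mbp, -1.59 for Gamt over Mbp and 0.52 for Apoe over Gamt. Apoe over Mbp was -0.35 without sham 2, and Gamt over Mbp was -0.42 without sham 1 and -0.43 without sham 2. An unequal change of Apoe or Gamt against Mbp was therefore not shown with all 6 mice.

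**Figure D3:**
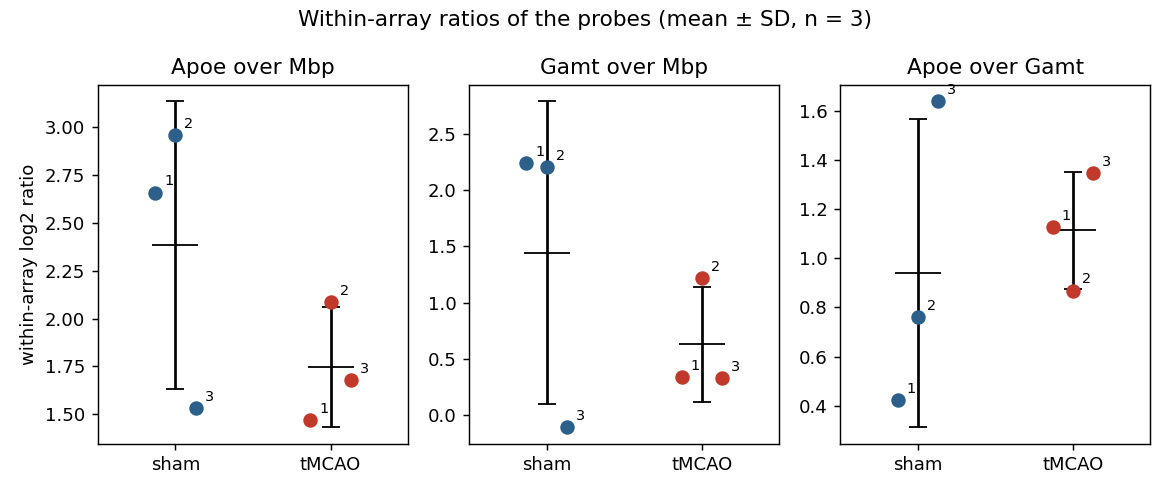
Within-array log2 ratios of Apoe over Mbp, Gamt over Mbp and Apoe over Gamt in each mouse, numbered by replicate, with the mean and SD in black (n = 3). Each panel has its own vertical axis; sham 1 and sham 2 lie above the tMCAO mice in the panels that divide by Mbp, and the groups overlap in every panel through sham 3.

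The promoters of Apoe and Gamt are printed, while that of Mbp is not reported here. The printed windows come from RefSeq (GRCm38.p6), read along the gene's strand from 250 bases before to 50 bases after an annotated start. Apoe has 3 annotated starts in that table, of which the most upstream is shown, at chr7:19699139-19699438 on the minus strand, and the table does not say which start the probe's transcript uses. Gamt has 1, at chr10:80260963-80261262 on the minus strand. Capitals mark the GC box GGGCGG, the CCAAT box CCAAT and the TATA box TATAAA, searched on both strands, so that CCGCCC is a GC box on the opposite strand.
Apoe promoter: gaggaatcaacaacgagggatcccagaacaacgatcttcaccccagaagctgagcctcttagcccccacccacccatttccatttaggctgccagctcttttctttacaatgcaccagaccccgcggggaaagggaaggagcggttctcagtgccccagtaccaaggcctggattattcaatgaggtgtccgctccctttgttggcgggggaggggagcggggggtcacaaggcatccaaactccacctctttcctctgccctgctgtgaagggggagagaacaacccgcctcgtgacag
Gamt promoter: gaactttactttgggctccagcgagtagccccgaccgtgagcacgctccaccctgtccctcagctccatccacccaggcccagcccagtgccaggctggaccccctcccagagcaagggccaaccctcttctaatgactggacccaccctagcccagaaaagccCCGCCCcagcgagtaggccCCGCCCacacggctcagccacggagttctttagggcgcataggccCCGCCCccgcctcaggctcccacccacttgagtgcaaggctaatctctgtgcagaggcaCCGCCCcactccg
The Gamt window held 4 GC boxes, all on the opposite strand, beginning 86, 67 and 22 bases before the start and at base 38 after it. The Apoe window shown held none of these motifs, which says only that those letters are not in it. Of the other Apoe windows, 1 held TATAAA on both strands, beginning 100 and 96 bases before its start. Of 32817 RefSeq windows of 300 bases, 35.6% held GGGCGG, 37.4% CCAAT and 13.6% TATAAA. The G and C content was 57.7% in the Apoe window and 66.0% in the Gamt window, against a median of 52.7% over all windows. Array signal after RNase R does not measure promoter use, so no value here is tied to these motifs.

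The profiles of the 3 genes over the 6 mice were compared with those of the other tested probes by the root mean square difference, after each probe was centred on its own mean. A nearest probe was picked for likeness to a member on these same arrays. Sharing that member's pattern or group difference is therefore no separate result. Apoe and Gamt differed by 0.40 (log2), Apoe and Mbp by 0.57 and Gamt and Mbp by 0.92. The nearest named mRNA probes to Gamt were Lhx1, a homeobox transcription factor, at 0.11 and Olfr166, an olfactory receptor, at 0.14. The median over all tested probes was 0.83. In both of these sham 1 and sham 2 were the highest arrays. Lhx1 was at 0.57, 0.43 and -1.50 in the sham mice and at -1.49, -0.66 and -0.97 in the tMCAO mice. Olfr166 was at 1.14, 0.82 and -0.64 in sham and at -1.09, -0.11 and -0.33 in tMCAO. Olfr166 has close paralogs, so the transcript behind its signal is uncertain. The nearest circRNA probe to Gamt, ASCRMP001397, lay at 0.078 and differed by -0.96 between groups (adjusted p = 0.596, limma). Without sham 3 it differed by -1.57 (adjusted p = 0.0221), Lhx1 by -1.54 (adjusted p = 0.0220) and Olfr166 by -1.49 (adjusted p = 0.0336, limma), against -0.88 for Lhx1 and -0.95 for Olfr166 with all 6 arrays. In the fit without sham 3, 9.36% of all probes and 31.0% of the mRNA probes had an adjusted p under 0.05. These calls follow from the likeness to Gamt by which the probes were picked.

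Nearest to Apoe were Duox1, a hydrogen peroxide-generating oxidase, at 0.16, Gsdmd, the pore-forming executor of pyroptosis, at 0.18, and Hyal3, of the hyaluronidase family, at 0.18, against a median of 0.56. All 3 averaged lower in tMCAO, at -0.46 for Duox1, -0.58 for Gsdmd and -0.44 for Hyal3, which follows from picking them for likeness to Apoe. None passed in limma, with adjusted p-values of 0.596, 0.596 and 0.618, and neither did any other tested probe (0.0%). Hyal3 was well above background on 4 of 6 arrays, and differed by -0.65 without sham 3. The nearest circRNA probe to Apoe was ASCRMP000545 at 0.068, with a difference of -0.63. Its values were 1.55, 1.41 and 0.68 in the sham mice and 0.20, 0.75 and 0.78 in the tMCAO mice, again with sham 3 among the tMCAO values.

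Mbp had no close mRNA partner. Gpi1, a glycolytic enzyme, was nearest at 0.22, followed by Actb, the cytoplasmic actin, at 0.27 and Dnajc11, a mitochondrial cochaperone, at 0.32. The root mean square of Mbp about its own mean was 0.25, so Actb and Dnajc11 were no closer to Mbp than a flat line would be. Actb varied little, at -0.64, -0.81 and -0.65 in the tMCAO mice and -0.85, -0.63 and -0.77 in the sham mice. ASCRMP001616 was the nearest circRNA probe, at 0.067, and it too held its highest value in sham 3, at -0.14, and its lowest in sham 2, at -0.66.

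Few other genes of these pathways are on the array. Of 20 lipid carrier and receptor genes listed, Apoe and Ppara were present. Ppara, a nuclear receptor for fatty acids, read -0.34, 2.69 and 1.75 in the tMCAO mice and -1.03, -0.34 and -0.39 in the sham mice. Its difference of 1.95 ± 0.69 (SE) was opposite in sign to that of Apoe, with tMCAO 1 at the sham level, and limma gave an adjusted p of 0.596. Mbp was the sole gene present of 16 listed for myelin, and Gamt of 9 for creatine synthesis and use.

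Of 11 astrocyte markers listed, Apoe and Gabrg1 were on the array, and both averaged lower in tMCAO. Gabrg1, a GABA-A receptor subunit enriched in astrocytes, read -2.52, -2.24 and -2.78 in the tMCAO mice and -0.91, -1.53 and -2.50 in the sham mice, and was well above background on 5 of 6 arrays. Its difference was -0.86 ± 0.39 (SE) with an adjusted p of 0.596 in limma, and -1.29 with an adjusted p of 0.0327 without sham 3. In the fit without sham 3, 31.0% of the mRNA probes had an adjusted p under 0.05. Sham 1 and sham 2 were again the high arrays. Of 11 oligodendrocyte markers, Mbp and Gamt were present. With all 6 arrays 0 genes in these lists passed an adjusted p of 0.05 in either direction in limma. Of all 1336 tested probes 0.0% passed in that fit, so the count says nothing particular to the lists. None of the 13 neuron, 9 microglia and macrophage, 5 endothelial and 3 blood markers listed had a named probe, so the cell makeup of the cortex samples could not be checked from these arrays.

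The median log2 difference was -0.76 for the 2 astrocyte markers and -0.43 for the 2 oligodendrocyte markers, beside 0.02 over all 1336 tested probes and -0.25 over the 29 mRNA probes. Apart from Gabrg1 these markers are the members themselves. The oligodendrocyte median lies between -0.03 for Mbp and -0.84 for Gamt and describes neither. Of the 29 mRNA probes 20 averaged lower in tMCAO and 9 higher. Among them 6 probes lay at or below Gamt, 8 at or below Apoe and 20 at or below Mbp.

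**Figure D4:**
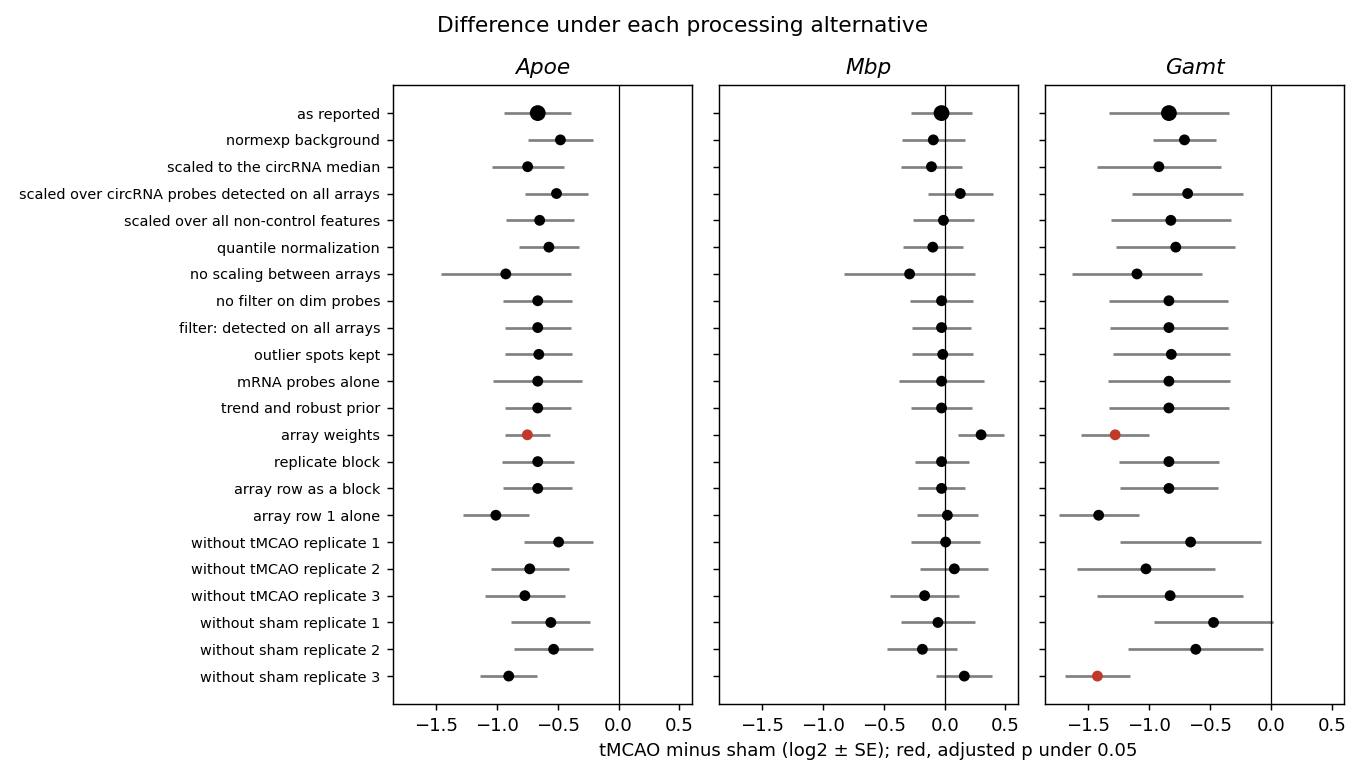
Difference between tMCAO and sham for Apoe, Mbp and Gamt under the reported processing and each alternative, as log2 ± SE, with an adjusted p under 0.05 in red. Apoe lies between -1.01 and -0.48 and Gamt between -1.43 and -0.47, all below 0, while Mbp lies on both sides of 0, between -0.29 and 0.30.

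The plot of differences by alternative shows how far each value moved. Apoe stayed below 0 in all 21 alternatives run and passed an adjusted p of 0.05 in 1 of them. Gamt stayed below 0 in all 21 and passed in 2. Mbp changed sign in 6 of 21 and passed in none. The probe filters, the mRNA probes fitted alone, the other variance model and the blocks cannot change the estimate itself. Their agreement in sign therefore adds nothing to those counts. The fit with array weights passed both Apoe and Gamt, at -0.75 with an adjusted p of 0.0270 and -1.28 with an adjusted p of 0.0211 (limma), and gave sham 3 the lowest weight, 0.28. In that fit 18.9% of all tested probes had an adjusted p under 0.05.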

How the data were processed

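RNA of the ipsilateral cortex of 1 mouse was digested with RNase R, random-primed, labelled with Cy3 and hybridised to 1 array, per the labels' protocols. The authors deposited the spot intensity that Agilent Feature Extraction 11.0.1.1 wrote on a linear scale after subtracting background and removing spatial trends, with no step that makes arrays comparable, per the file headers. Spots flagged as outliers were left out, log2 intensity was averaged over the spots of a probe, and the array's own 75th percentile of its circRNA probes was taken off. Probes well above background in over 0.5 of their spots on at least 3 of 6 arrays were fitted together in limma 3.58.1 (R 4.3.3), two-sided, with group as the sole term and Benjamini-Hochberg adjustment over all 1336. The test was tried on simulated data.

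Probes were named through accessions matched to RefSeq genes of GRCm38.p6, which named 44 of 50 mRNA probes. The array design names build mm9, per the file headers, so the coordinates printed belong to the RefSeq windows and not to the array. Named besides the members were the 3 named mRNA probes and the 1 circRNA probe closest to each by root mean square difference, and every gene on the array from the lipid, myelin, creatine and cell type lists; 1 probe that this rule picks is not reported here. The members and lists were chosen with earlier results of these data known. Alternatives covered background correction (normexp, on the median pixel signal with an offset of 50), scaling, filters, outlier spots, variance models, array weights, blocks and leaving out each array.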

Additional observations from a re-analysis of the deposited data

How the results depend on the processing

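With 6 equally weighted arrays, 0 of 1336 probes passed an adjusted p of 0.05 in limma and 95 had an unadjusted p under 0.05. With array weights 252 passed, Apoe (-0.75) and Gamt (-1.28) among them. With no scaling between arrays 6 passed, and leaving out 1 array gave 0 to 125, the highest without sham 3. The groups did not overlap for 161 probes, which became 50 with no scaling, 256 with no filter on dim probes and 2 among the 29 mRNA probes alone. The count was 769 in array row 1 alone, which lacks sham 3, and 206 to 658 with 1 array left out, the highest without sham 3. Counts from fewer arrays are not directly comparable with that from 6, and the part of array number in them was not tested. Apoe and Gamt kept their sign in all 21 alternatives, although the probe filters, the blocks and the other variance model cannot change the estimate itself. Leaving out 1 array gave -0.90 to -0.49 for Apoe and -1.43 to -0.47 for Gamt, which passed without sham 3. Mbp changed sign to 0.13 with scaling to circRNA probes detected everywhere, 0.30 under array weights and 0.022 in row 1 alone, and ranged from -0.18 to 0.16 with 1 array left out, above 0 without tMCAO 1, tMCAO 2 or sham 3. The ratio of Apoe over Gamt ranged from -0.086 to 0.52 with 1 array left out and changed sign without sham 1. With the replicate block the differences were -0.66 for Apoe, -0.03 for Mbp and -0.84 for Gamt, with adjusted p-values of 0.491, 0.961 and 0.512 in limma and 0 probes called. Deviations of same-numbered mice correlated at -0.15, 0.47 and 0.18, and not every mouse correlated best with its own number, so the numbers were not treated as pairing. The cause of these changes was not tested. Blocks for slide or scan were not run. Signal over background limits dim probes: tMCAO 3 detected 1089 of the 1797 circRNA probes, while tMCAO 1 detected 1444.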
